A study of Mus musculus with 2 samples.

Results

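Late-only peaks at gene ends are ATAC-seq peaks that were called in mouse prostate tumor cells after 6 months of tamoxifen, had no overlapping peak after 2 weeks, and lay next to a protein-coding gene. They were chosen by the peak calls themselves. A member is a peak of the 6-month library (M6) on chromosomes 1 to 19, X and Y that overlaps no peak of the 2-week library (W2) and touches a window of 1000 bp on either side of either annotated end of an mm10 protein-coding gene, outside 2 segments of chromosome 4 (chr4:81815783-83165450 and chr4:122699690-123637714). There were 5042 members among 22570 M6 peaks on these chromosomes, against 5735 peaks in W2. The absence of a W2 peak and the nearness to a gene end were therefore set by the choice and are given as a description.

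The study followed chromatin accessibility in C57BL/6 prostate tumor cells at an early (W2) and a late (M6) stage of progression to neuroendocrine prostate cancer. Both libraries carried tamoxifen treatment, for 2 weeks or 6 months, and the sources used here gave neither a genotype nor the number of animals or cultures. Each stage was 1 library, so no difference between stages has a replicate check, no test was possible, and the intervals below (95%, exact binomial) cover counting error only. The depth of sequencing is unknown, and duration cannot be told apart from any other difference between the 2 libraries.

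ATAC-seq uses a transposase that inserts adapters where DNA is free of nucleosomes, and the start of an active gene is a typical site of such open chromatin. Many mammalian starts lie in CpG islands, where the dinucleotide CpG is not depleted and GC boxes, CCAAT boxes and ETS sites bind general activators. Neuroendocrine prostate tumors are known for expressing genes of neurosecretory cells and neurons while losing luminal epithelial features. A peak at a gene start marks accessible DNA and does not measure transcription.

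The sequences of 8 promoters under members are shown to give the range of what these peaks covered, from CpG-rich starts of genes used in every cell to the CpG-poor starts of Syt1 and Neurod4. Each is the RefSeq sequence (GRCm38.p6, the assembly of mm10) in front of the annotated start, read 5′ to 3′ on the strand of the gene, with bases inside an annotated protein-coding gene left off. Capitals mark exact matches, on either strand, to the motifs searched. Among overlapping matches to the same motif, the leftmost was marked and counted. The letters were GGGCGG for the GC box and CCAAT for the box of that name. They were CCGGAAG for an ETS site and GCATGCGC for a site of NRF1, and TGACGTCA for the cyclic AMP response element. The TATA box was searched as TATAAA, while CAGCTG stood for an E-box and TTGGCA for the half-site of NFI. Matches of the CCAAT box and of the NFI half-site can share bases. Fance (chr17:28313280-28313529, plus strand), Gpbp1 (chr13:111490129-111490377, minus strand), Ccne1 (chr7:38107491-38107740, minus strand), Mrpl32 (chr13:14613038-14613241, minus strand), Fos (chr12:85473640-85473889, plus strand), Med12 (chrX:101273841-101274090, plus strand), Syt1 (chr10:109010981-109011225, minus strand) and Neurod4 (chr10:130280255-130280504, minus strand) follow.
Fance: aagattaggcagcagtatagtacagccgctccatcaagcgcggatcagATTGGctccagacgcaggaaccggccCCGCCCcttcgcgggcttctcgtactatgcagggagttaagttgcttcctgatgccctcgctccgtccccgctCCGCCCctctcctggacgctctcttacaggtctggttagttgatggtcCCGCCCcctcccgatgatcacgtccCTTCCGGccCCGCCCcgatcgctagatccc
Gpbp1: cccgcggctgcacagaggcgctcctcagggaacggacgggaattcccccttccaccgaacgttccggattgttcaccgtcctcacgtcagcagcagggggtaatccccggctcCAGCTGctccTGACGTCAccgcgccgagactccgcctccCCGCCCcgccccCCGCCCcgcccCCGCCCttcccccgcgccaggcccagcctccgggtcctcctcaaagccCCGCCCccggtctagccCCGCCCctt
Ccne1: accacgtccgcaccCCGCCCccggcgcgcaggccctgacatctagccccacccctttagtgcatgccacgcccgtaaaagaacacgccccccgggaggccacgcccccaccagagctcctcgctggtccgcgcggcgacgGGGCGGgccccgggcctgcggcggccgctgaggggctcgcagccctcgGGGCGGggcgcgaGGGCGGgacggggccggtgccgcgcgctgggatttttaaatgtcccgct
Mrpl32: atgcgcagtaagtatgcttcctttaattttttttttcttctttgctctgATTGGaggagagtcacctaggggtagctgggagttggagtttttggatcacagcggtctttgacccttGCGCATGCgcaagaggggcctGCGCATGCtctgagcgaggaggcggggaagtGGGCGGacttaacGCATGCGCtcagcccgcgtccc
Fos: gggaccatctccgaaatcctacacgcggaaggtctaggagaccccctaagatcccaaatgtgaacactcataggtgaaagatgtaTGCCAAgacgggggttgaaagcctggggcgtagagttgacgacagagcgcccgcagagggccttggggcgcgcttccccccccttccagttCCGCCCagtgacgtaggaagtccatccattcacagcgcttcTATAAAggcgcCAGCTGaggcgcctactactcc
Med12: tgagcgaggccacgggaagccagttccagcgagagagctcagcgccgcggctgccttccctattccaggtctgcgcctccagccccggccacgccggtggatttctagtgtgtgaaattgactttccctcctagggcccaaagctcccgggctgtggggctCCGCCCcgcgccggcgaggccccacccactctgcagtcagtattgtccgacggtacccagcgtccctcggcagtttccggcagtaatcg
Syt1: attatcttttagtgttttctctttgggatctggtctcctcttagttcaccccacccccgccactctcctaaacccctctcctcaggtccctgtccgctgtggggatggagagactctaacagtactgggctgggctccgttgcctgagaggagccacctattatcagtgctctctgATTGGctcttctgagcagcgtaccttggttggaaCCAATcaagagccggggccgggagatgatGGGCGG
Neurod4: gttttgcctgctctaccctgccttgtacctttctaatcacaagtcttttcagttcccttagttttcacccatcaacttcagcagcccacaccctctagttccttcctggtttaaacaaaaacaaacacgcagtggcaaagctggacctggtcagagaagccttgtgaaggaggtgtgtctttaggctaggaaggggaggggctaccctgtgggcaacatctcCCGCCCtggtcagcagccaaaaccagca

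The stretch shown for Mrpl32 is the 204 bases between the starts of Mrpl32, a mitochondrial ribosomal protein gene, and Psma2, a proteasome subunit gene read the other way. It held 3 non-overlapping NRF1 matches, and a single late-only peak (chr13:14612940-14613566) lay over both starts. The promoter of Gpbp1, which encodes a GC-rich promoter binding protein, held 5 non-overlapping GC boxes and 1 cyclic AMP response element in 249 bases. That of Ccne1, the cyclin E1 gene, held 4 GC boxes. The Fos promoter was the one shown with a TATA box. In the Syt1 promoter, in front of the gene for the calcium sensor of synaptic vesicle release, 2 CCAAT boxes stood beside a low CpG content, with an observed to expected CpG ratio of 0.332 over the 300 bases around the start. The ratio was lower still at Neurod4 (0.197), a proneural transcription factor gene, and was 0.947 at Ccne1. Low ratios were not general at neuronal genes with members, as it was 1.07 at Sox1 and 0.905 at Tlx3. Over the 29 listed promoters of neuronal transcription factor genes the median ratio was 0.767, against 0.577 over all genes. A motif match is a match of letters and not a measured binding site.

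Members were weaker and narrower than the M6 gene-end peaks that W2 shared. The pileup, the number of tags stacked at a peak's summit, had a median of 20 in members (range 10 to 64), 33 in the 3239 shared gene-end peaks and 19 in the 12800 late-only peaks away from gene ends. The median width was 334 bp in members, 526 bp in shared gene-end peaks and 303 bp in late-only peaks elsewhere. Median fold, which sets the pileup against the local M6 background, was 4.43, 6.19 and 4.59 in the same order. The median −log10 q given by the peak caller was 6.16, 14.4 and 6.12. In height, members thus lay close to the late-only peaks elsewhere. Their median local background was 3.72, against 4.44 for shared gene-end peaks and 3.18 for late-only peaks elsewhere. Together the members covered 1924 kb.

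**Figure D1:**
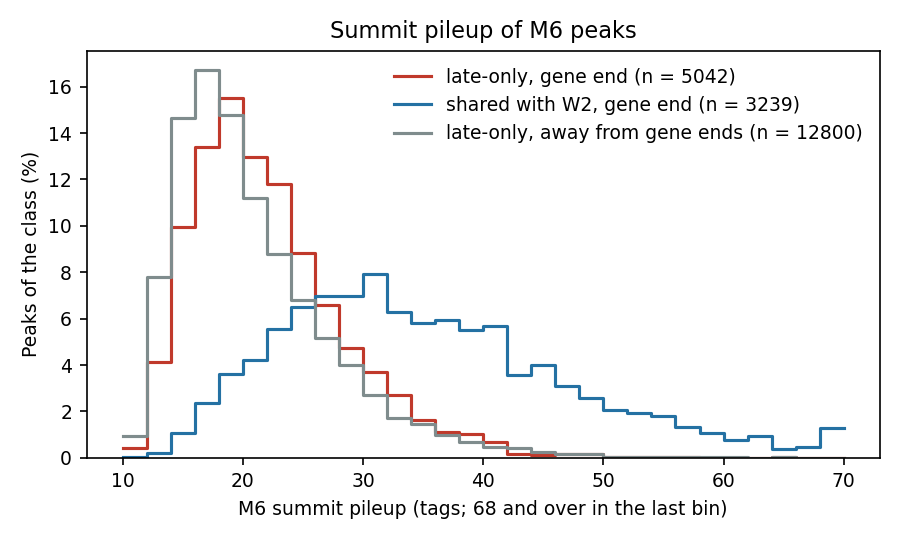
Distribution of M6 summit pileup (x axis, tags; y axis, percent of the peaks of each class) for 5042 late-only gene-end peaks, 3239 gene-end peaks shared with W2 and 12800 late-only peaks away from gene ends. Late-only peaks at and away from gene ends have medians of 20 and 19, and shared gene-end peaks have a median of 33.

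The share of M6 gene-end peaks that were late-only fell with peak height. It was 96.7% (446 of 461) below a pileup of 15, 78.4% (1495 of 1907) from 20 to 24 and 33.5% (513 of 1533) from 30 to 39. At a pileup of 40 and over it was 6.70% (72 of 1074, interval 5.28 to 8.37%). Away from gene ends the share at 40 and over was 51.0% (219 of 429, interval 46.2 to 55.9%). Over all heights, 60.9% of M6 gene-end peaks were late-only, and 90.8% of those elsewhere. The height of the W2 signal under members cannot be read from peak lists. In W2 the lowest pileup of any called peak was 12, and it was 13 among the 679 W2 peaks whose background was within 0.1 of the members' median. An M6 pileup of at least 13 was reached by 98.3% of members. Tags of the libraries need not be on the same scale, so this share does not say how many members W2 could have called. The lowest background of any called peak was 2.96 in W2 and 2.65 in M6. In the 3305 overlapping pairs of gene-end peaks, median pileup was 22 in W2 and 33 in M6, a median log2 ratio of 0.58, and how far depth enters the late-only calls was not tested.

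**Figure D2:**
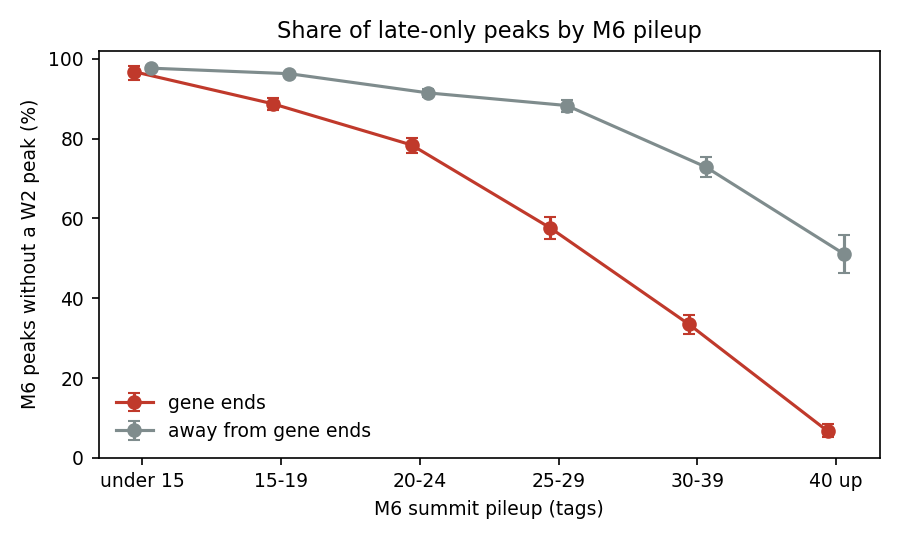
Share of M6 peaks without an overlapping W2 peak (y axis, percent) by M6 summit pileup (x axis, tags), at gene ends and away from them; bars are 95% exact binomial intervals. At gene ends the share goes from 96.7% below 15 tags to 6.70% at 40 and over, and away from gene ends it is 51.0% at 40 and over.

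The 15 members with the largest −log10 q lay at genes of unlike function. The peak with the largest −log10 q (36.1) lay at the start of Khdrbs2 (chr1:32172480-32172991), which encodes an RNA-binding splicing regulator, with a pileup of 57 and a fold of 10.3. No W2 peak lay nearer than 1153 kb. The Fance peak (Fanconi anemia DNA repair; chr17:28313270-28313642) had a pileup of 50 and a −log10 q of 30.0, and the Gpbp1 peak (chr13:111489814-111490147) a pileup of 54 and 29.3. Med16, a Mediator subunit gene, followed with a pileup of 52 and a −log10 q of 28.5. Agps, an enzyme of ether lipid synthesis, had a pileup of 45 and a −log10 q of 28.2. The next were Zfp438 (26.7), a peak touching Rfxank, Gm45929 and Borcs8 (26.2), Prss57 (25.5), Tvp23b (25.1) and Hmces (24.5). Dnah9, an axonemal dynein gene, reached 24.4, the RNA-binding protein gene Rbm6 and Tbc1d31 24.2 each, the protein phosphatase 1 gene Ppp1cb 23.3, and a peak touching Tpgs2 and AW554918 23.2. Of these 15, the member at Hmces touched a 3′ end, and for those at Zfp438, Prss57, Tvp23b, Tbc1d31 and the Tpgs2 pair the direction of the gene was unknown. None of the 15 was at a gene with a W2 gene-end peak. The largest pileup of any member, 64, was at the 3′ end of Mroh2a (named after its value was seen), where the local background of 17.3 was high and the −log10 q was 14.1. Of the 72 members with a pileup of 40 and over, 10 touched such a gene.

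The widest member lay at Syt1 (1385 bp, pileup 45, −log10 q 21.0). It was followed by members at F8a (1323 bp), Rprd1a (1260 bp), Lrba (1230 bp) and Slc40a1 (1192 bp), the last being the gene of the iron exporter ferroportin. At the edges of the choice, members at Sdhd and Arpp21 lay 999 bp from a gene end and one at Upp2 994 bp, and peaks nearest Ankrd55, Pex26 and Faah, at 1001 bp, were left out. A member at Cdc42ep4 was 18 bp from a W2 peak, one at Shld2 and Glud1 27 bp and one at Efr3a 30 bp. M6 peaks at Atxn7l3b, Ttc17 and Cep192 overlapped a W2 peak by 10, 25 and 31 bp and were not members. Such close cases were few, as 332 members (6.58%) had a W2 peak within 1000 bp. The median gap to the nearest W2 peak was 66.3 kb.

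The members touched 5259 of 21887 protein-coding genes (24.0%), and 4764 genes (21.8%) had a member and no W2 gene-end peak. A shared M6 gene-end peak was present at 3871 genes (17.7%), and 461 genes had both kinds. A gene-end peak in neither library was the case for 13057 genes. Most genes with members had a single one (4751 genes), 486 had 2 and 22 had 3. Among the genes with 3, at Odf2, a sperm tail and centrosome protein gene, 1 member lay at the start (pileup 30) and 2 at the 3′ end (pileups 21 and 26). Pkp4, a plakophilin gene of cell junctions, had 2 at the start (pileups 32 and 19) and 1 at the 3′ end (pileup 26). Conversely, 729 members (14.5%) touched 2 or more genes, against 709 (21.9%) of the shared gene-end peaks. Members over starts on both strands, as at Mrpl32 and Psma2, made up 9.03% (359 of 3974), against 16.6% (441 of 2662) of shared peaks with a known strand.

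A second site at a gene already open at 2 weeks was the less usual case, but the choice enters this. A peak that overlaps a W2 peak cannot be a member, and 18.4% of all genes had a W2 gene-end peak. There were 468 members (9.28%) at a gene with a W2 gene-end peak. Their median gap to the nearest W2 peak was 0.469 kb, and 68.8% lay within 2000 bp of one. Their median −log10 q was 5.40, against 6.30 for the other 4574 members. Celsr3, a planar polarity cadherin gene, was the 1 such gene among the 5 named neuroendocrine genes, with a pileup of 49.

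Where the strand of the gene was known (3974 members), 95.1% touched an annotated start, and 196 (4.93%) touched a 3′ end only. Among shared gene-end peaks 0.676% (18 of 2662) touched a 3′ end only. Of the 196, 187 had no listed start of any gene within 1000 bp. The strongest were at Hmces, a sensor of abasic DNA sites (pileup 38, −log10 q 24.5), Gcgr, the glucagon receptor gene (pileup 46, −log10 q 21.8), and the chaperone gene Dnajb12 (pileup 49, −log10 q 20.1). Crebrf, Arsj and Tyw5 followed at −log10 q 17.2, 16.8 and 16.3. In height, 3′-end members did not stand below the rest, with a median pileup of 20 in both. Crebrf also had a W2 gene-end peak, and the nearest W2 peak lay 59.3 kb from the member.

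Summits of members were spread more widely around the start than those of shared peaks. Of 3780 member summits with a start within 1500 bp, 72.1% lay within 250 bp of it, against 86.9% of 2700 shared summits, and 13.9% against 4.22% lay more than 500 bp away. Upstream of the start lay 57.7% of member summits and 77.4% of shared ones, with median positions of −20 and −60 bp. Position changed with height in both classes, so classes of equal pileup were also set side by side. Below a pileup of 20, 48.9% of member summits (interval 46.4 to 51.3%) and 60.6% of shared summits (53.4 to 67.5%) were upstream. From 30 to 39 the shares were 73.8% (69.1 to 78.1%) and 77.1% (74.1 to 79.9%), and at 40 and over 80.0% (67.0 to 89.6%) and 88.5% (86.2 to 90.5%). For the upstream share, the gap between the classes was thus smaller at equal height than over all heights, and the intervals overlapped at every pileup class from 20 up. For nearness to the start it was not smaller throughout. Within 250 bp lay 66.9% of member and 82.3% of shared summits below a pileup of 20, and 74.3% and 86.5% from 20 to 24. From 25 to 29 these shares were 76.6% and 88.9%, from 30 to 39 80.2% (75.9 to 84.0%) and 88.2% (85.8 to 90.3%), and at 40 and over 76.4% and 85.8%. Of the 5 classes, the intervals overlapped at 40 and over. Members farther from the start more often shared their gene with a W2 gene-end peak, in 146 of 2724 cases within 250 bp and 131 of 524 beyond 500 bp. A peak that overlaps a W2 peak cannot be a member, so the choice itself removes sites close to starts that W2 peaks cover. The choice thus enters this count and the spread of member summits, which are given as descriptions.

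**Figure D3:**
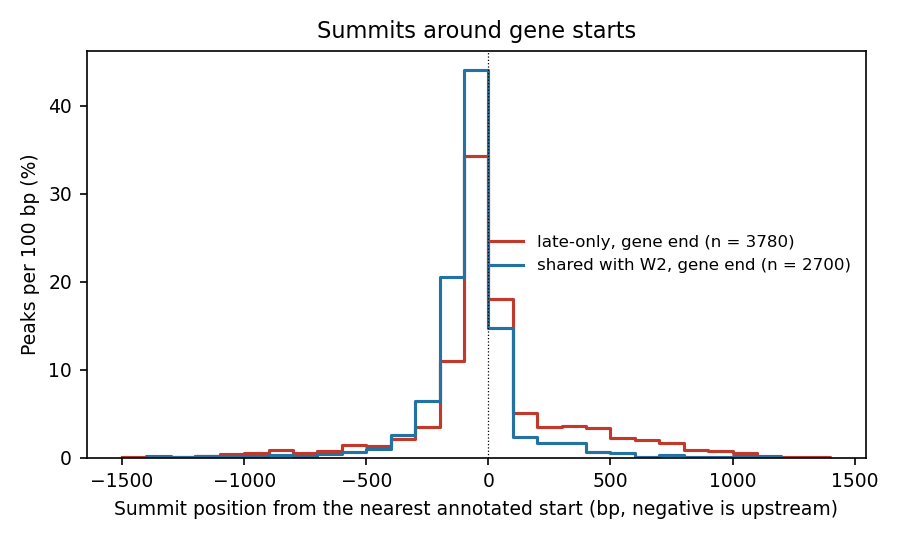
Position of M6 summits around the nearest annotated start (x axis, bp, negative is upstream; y axis, percent of peaks per 100 bp) for late-only (n = 3780) and shared (n = 2700) gene-end peaks. Late-only summits have their median at −20 bp and shared ones at −60 bp, and 13.9% of late-only summits lie more than 500 bp away.

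In base composition the promoters under members were close to those under shared peaks and unlike those without a peak. Promoters were taken as 250 bases before to 50 after the start, and 3618 genes with a late-only peak at the start and no W2 gene-end peak were compared with 3153 genes with a shared peak there and 10270 with no gene-end peak in either library. Median GC content was 61.7%, 62.3% and 51.0%, and the median CpG ratio 0.787, 0.810 and 0.295. A CpG ratio of 0.6 or more was found in 76.7%, 84.7% and 27.1%. Across all listed promoters, the share with a late-only start peak went from 2.33% (93 of 3996) at ratios below 0.2 to 37.2% (531 of 1428) at ratios of 1 and over. GC boxes were present in 66.2% of late-only, 74.5% of shared and 30.3% of peak-free promoters (46.3% of all). ETS sites were present in 19.3%, 22.3% and 6.12% (11.9% of all). NRF1 sites were found in 6.52%, 6.22% and 1.70% (3.61% of all), and YY1 sites (AAGATGGC) in 4.78%, 5.20% and 1.99% (3.21% of all). TATA boxes went the other way, with 7.24%, 5.07% and 18.2% (13.3% of all), as did AP-1 sites (TGANTCA) with 3.81%, 3.93% and 9.09% (7.03% of all).

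CCAAT boxes set late-only and shared promoters farther apart than any other of the 12 motifs searched. Promoters were counted by gene, so genes with starts close together on opposite strands could enter the same bases more than once. Starts on both strands lay under 9.03% of members and 16.6% of shared peaks with a known strand. The intervals treat all promoters as separate. A CCAAT box, the site of the trimeric factor NF-Y, was found in 34.7% of late-only promoters (interval 33.2 to 36.3%), 54.7% of shared promoters (53.0 to 56.5%), 36.4% of peak-free promoters and 39.2% of all. At equal pileup the share was 31.1% in late-only and 44.5% in shared promoters below 20, 34.2% and 38.3% from 20 to 24, and 38.2% and 46.0% from 25 to 29. It was 43.3% and 54.6% from 30 to 39, and 46.2% and 68.0% at 40 and over, where 52 late-only promoters were left. At equal GC content the order was the same: 46.0% and 58.1% below 55% GC, 39.6% and 62.2% from 55 to 60%, 32.3% and 57.7% from 60 to 65%, and 26.3% and 47.2% above. In these GC classes peak-free promoters had 41.8%, 32.5%, 30.8% and 20.4%, below the late-only share in each, unlike over all GC contents. The late-only and peak-free intervals overlapped below 55% GC and from 60 to 65%. Of the 5 pileup classes, the intervals of late-only and shared promoters overlapped from 20 to 24 and from 25 to 29. Where present, the matches lay at like positions, with medians 83.0 and 84.5 bases before the start. E-boxes of the sequence CAGCTG, bound by neuronal and other basic helix-loop-helix factors, were in 15.4% of late-only, 11.2% of shared and 15.1% of all promoters. Forkhead sites (TGTTTAC) were in 2.49%, 2.25% and 2.93%, and SOX sites (ACAATGG) in 1.77%, 1.49% and 2.89%, in the same order.

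**Figure D4:**
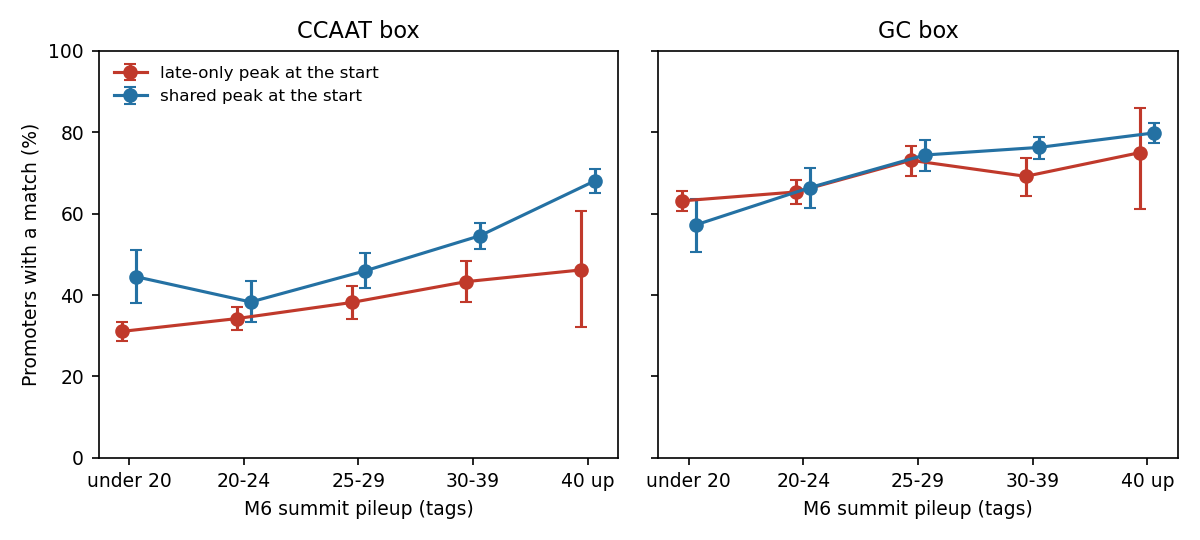
Share of promoters with at least 1 match (y axis, percent) by pileup of the M6 peak at the start (x axis, tags), for CCAAT boxes (left) and GC boxes (right); bars are 95% exact binomial intervals. For CCAAT boxes late-only promoters lie below shared ones in each class (31.1% against 44.5% below 20 tags, 46.2% against 68.0% at 40 and over), and for GC boxes the curves cross.

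Of 38 neuroendocrine genes, 20 (52.6%) had a member, against 24.0% of all genes, and 3 had a shared peak, against 17.7%. Syt1 was the strongest (pileup 45, fold 6.87, −log10 q 21.0), followed by Celsr3 (pileup 49, −log10 q 17.6), Onecut2, a transcription factor gene (pileup 34, −log10 q 14.1), Uchl1, a neuronal deubiquitinase gene (32, 11.6 in the same measures), and Sox11 (28, 9.75). Of the defining markers, Chgb and Ncam1 had members with −log10 q of 7.38 and 4.44, while both libraries lacked a gene-end peak at Chga, Syp and Insm1. The list kept 12 genes (31.6%, against 16.9% of all genes) when a −log10 q of 5 was required. With M6 limited to as many peaks as W2 it kept 4 (10.5%, interval 2.94 to 24.8%), and the interval includes the 4.20% of all genes. Of 35 genes of synaptic vesicle release, 10 (28.6%, interval 14.6 to 46.3%) had a member, a share near the 24.0% of all genes, and 3 a shared peak. Besides Syt1, which is on both lists, members lay at the synapsin gene Syn2 (pileup 27, −log10 q 13.3), Rab3c (24 and 10.4) and the vesicle priming gene Unc13a (27 and 6.31).

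Of 35 neuronal transcription factor genes, 6 had a member (17.1%, interval 6.56 to 33.6%, against 24.0% of all genes), none a shared peak (17.7% of all genes), and 29 no gene-end peak (82.9%, against 59.7% of all genes). The strongest were Tlx3 (pileup 35, −log10 q 11.6), Neurod4 (23 and 11.2), Sox21 (30 and 10.0), Sox1 (27 and 8.69) and Dlx2 (17 and 5.41). Potassium channel genes of the Kcn family had members at 17 of 92 (18.5%, interval 11.1 to 27.9%) and shared peaks at 4, led by Kcnb2 (pileup 30, −log10 q 11.3). Protocadherin genes had members at 7 of 69 (10.1%), led by Pcdh8 (pileup 36, −log10 q 14.5), and HOX genes at 2 of 39 (5.13%; Hoxa5 and Hoxa6, a single peak of pileup 13). A median of the strongest −log10 q per gene was 9.34 in the neuronal transcription factor list, 6.64 in the neuroendocrine list and 6.52 over all genes with a member.

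Epithelial genes had members at shares near the 24.0% of all genes. Of 34 luminal epithelial genes, 9 (26.5%) had a member and 9 a shared peak. The tight junction gene Cldn7 had a pileup of 39 and a −log10 q of 17.8, and the epithelial splicing regulators Esrp1 and Esrp2 had pileups of 35 each. Esrp1 also had a W2 gene-end peak and a shared M6 one, and the nearest W2 peak lay 170 bp from its member. Krt8, the keratin of simple epithelia, had a pileup of 25 and a −log10 q of 6.05. The defining markers Cdh1 and Epcam had gene-end peaks in both libraries, and Krt18 in neither. Of the labelled cell type, then, the general epithelial markers Cdh1 and Epcam were open by these calls. Of 20 basal genes 5 had members, led by Sfn (pileup 26), with no gene-end peak at Krt5, Krt14 or Trp63. Sfn also had a W2 gene-end peak and a shared M6 one, and the nearest W2 peak lay 1943 bp from its member. Of 16 genes of epithelial-mesenchymal transition 4 had members, led by Snai2 (pileup 28, −log10 q 11.5).

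Lists of markers of other cell types that a tumor sample could hold had few members, but with 10 to 22 genes each they bound the share only loosely. There was 1 among 16 fibroblast genes (Gsn, pileup 20), 1 among 22 leukocyte genes (Coro1a, pileup 19), none among 15 endothelial and 10 smooth muscle genes, and 2 among 15 hepatocyte genes (Ahsg at its 3′ end and F2). Set against the 24.0% of all genes, the upper ends of the intervals were 30.2% for fibroblast, 22.8% for leukocyte, 21.8% for endothelial, 30.8% for smooth muscle and 40.5% for hepatocyte genes. With a window of 2000 bp the hepatocyte list had 4 members (26.7%, against 27.1% of all genes), the fibroblast list 3 and the leukocyte list 2. The defining markers Col1a1, Dcn, Pdgfra, Acta2, Myh11, Ptprc, Csf1r, Cd3e, Pecam1, Cdh5 and Kdr were without a gene-end peak at both stages. Whether a small fraction of such cells was present cannot be read from these calls.

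Chromatin regulator genes had members at 18 of 40 (45.0%, against 24.0% of all genes) and shared peaks at 6, close to the 17.7% of all genes. Kmt2d, a histone H3 lysine methyltransferase gene, was the strongest (pileup 36, −log10 q 18.8), and its member lay at the 3′ end, where it also touched Prkag1. The summit (98831512) lay outside Kmt2d, whose 3′ end is at 98831669, and which gene this site serves was not tested. Tet3, which oxidizes methylcytosine, had a pileup of 31, the Polycomb ubiquitin ligase gene Rnf2 26, the Polycomb methyltransferase gene Ezh1 22 and the SWI/SNF ATPase gene Smarca4 25. With M6 limited to as many peaks as W2, 1 of the 40 remained (2.50%, against 4.20% of all genes). Immediate early and stress genes had members at 12 of 23 (52.2%) and shared peaks at 6 (26.1%), and 4 of the 23 kept a member with as many M6 as W2 peaks. Egr3 led (pileup 34, −log10 q 13.6), then Atf3 (36 and 11.4), the phosphatase gene Dusp1 (37 and 10.9), Fos (31 and 10.8) and Jund (38 and 8.67). Atf3 had a W2 gene-end peak as well, and its member lay at the 3′ end. The zinc finger genes named Zfp, many of them KRAB repressors, had members at 143 of 397 (36.0%) and shared peaks at 74 (18.6%), led by Zfp438 (pileup 47) and Zfp322a (pileup 37, fold 9.13).

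Cell cycle, DNA repair, housekeeping and tumor suppressor genes had both kinds of peak at shares above those of all genes (24.0% late-only and 17.7% shared). Cell cycle genes had members at 15 of 36 (41.7%) and shared peaks at 17 (47.2%). E2f1 (pileup 33, −log10 q 13.3), the replication helicase gene Mcm6 (31 and 12.5) and the cyclin E genes Ccne1 (29 and 12.4) and Ccne2 (33 and 12.1) led. DNA repair genes had members at 10 of 32 (31.2%, with an interval from 16.1%) and shared peaks at 17 (53.1%), with Parp1 the strongest member (pileup 30, −log10 q 14.5). Housekeeping genes had members at 10 of 30 (33.3%, interval 17.3 to 52.8%) and shared peaks at 15, led by Polr2a, the largest subunit of RNA polymerase II (pileup 33). Tumor suppressor genes had members at 13 of 28 (46.4%) and shared peaks at 11, with members at Spop (pileup 21, −log10 q 8.72) and Cdkn2a (26 and 7.23). With M6 limited to as many peaks as W2, members remained at 5 cell cycle (13.9%), 1 DNA repair, 1 housekeeping and none of the tumor suppressor genes, against 4.20% of all genes. Of the genes with any M6 gene-end peak, those with a late-only and no shared one made up 55.2% over all genes, 85.0% (17 of 20) in the neuroendocrine list, 73.9% (17 of 23) among chromatin regulators, 41.4% (12 of 29) in the cell cycle list and 34.6% (9 of 26) in DNA repair. These shares describe lists of 32 to 40 genes and carry no test. The median CpG ratio of listed promoters was 0.831 in the housekeeping and 0.859 in the tumor suppressor list, against 0.577 over all genes. Of all promoters with a ratio from 0.8 to below 1, 33.3% had a late-only start peak and no W2 gene-end peak, and 34.5% a shared one. The part of CpG content in the list shares was not tested.

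Organelle and machinery families had members at 35.9 to 54.3% of their genes. They also had shared peaks at 25.6 to 47.2%, so both kinds lay above the shares of all genes (24.0% and 17.7%). Among genes with any M6 gene-end peak, the share with only late-only ones was 41.4% in the Golgi and 51.3% in the spliceosome list. It was 58.1% in the autophagy list and 15 of 25 in the Mediator list, against 55.2% over all genes. Autophagy and lysosome genes had members at 19 of 35 (54.3%) and shared peaks at 13, led by the initiating kinase gene Ulk1 (pileup 40, −log10 q 17.1), Atg10 (32 and 15.1) and Atg5 (34 and 14.7). Golgi and vesicle trafficking genes had members at 16 of 36 and shared peaks at 17, led by Sec16a, a scaffold of secretory exit sites (pileup 48, −log10 q 18.5). Mediator genes had members at 15 of 30, led by Med16, with Med13, Med6 and Med12 at a pileup of 24 each. Spliceosome genes had 22 of 48, led by Prpf38a (pileup 29), and proteasome genes 17 of 39, led by Psma2 (pileup 37, −log10 q 19.7). Ribosomal protein genes had 33 of 84, mitochondrial ribosomal protein genes 32 of 78 and respiratory chain genes 33 of 92, led by Rps14 (pileup 35), Mrpl32 (37) and Atp5md (31). Replication-dependent histone genes, which lie in clusters and share peaks (H2ac12 with H2bc12, H2bc6 with H1f4), had 16 of 98 with members and 24 with shared peaks. At the other end, 1 of 1107 olfactory receptor genes (Olfr154) and 1 of 353 vomeronasal receptor genes (Vmn2r29, pileup 12) had a member, and keratin genes had 4 of 53. In all, 22 of the 37 lists held members at a higher share than the 24.0% of all genes, which include the olfactory and vomeronasal receptor genes.

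**Figure D5:**
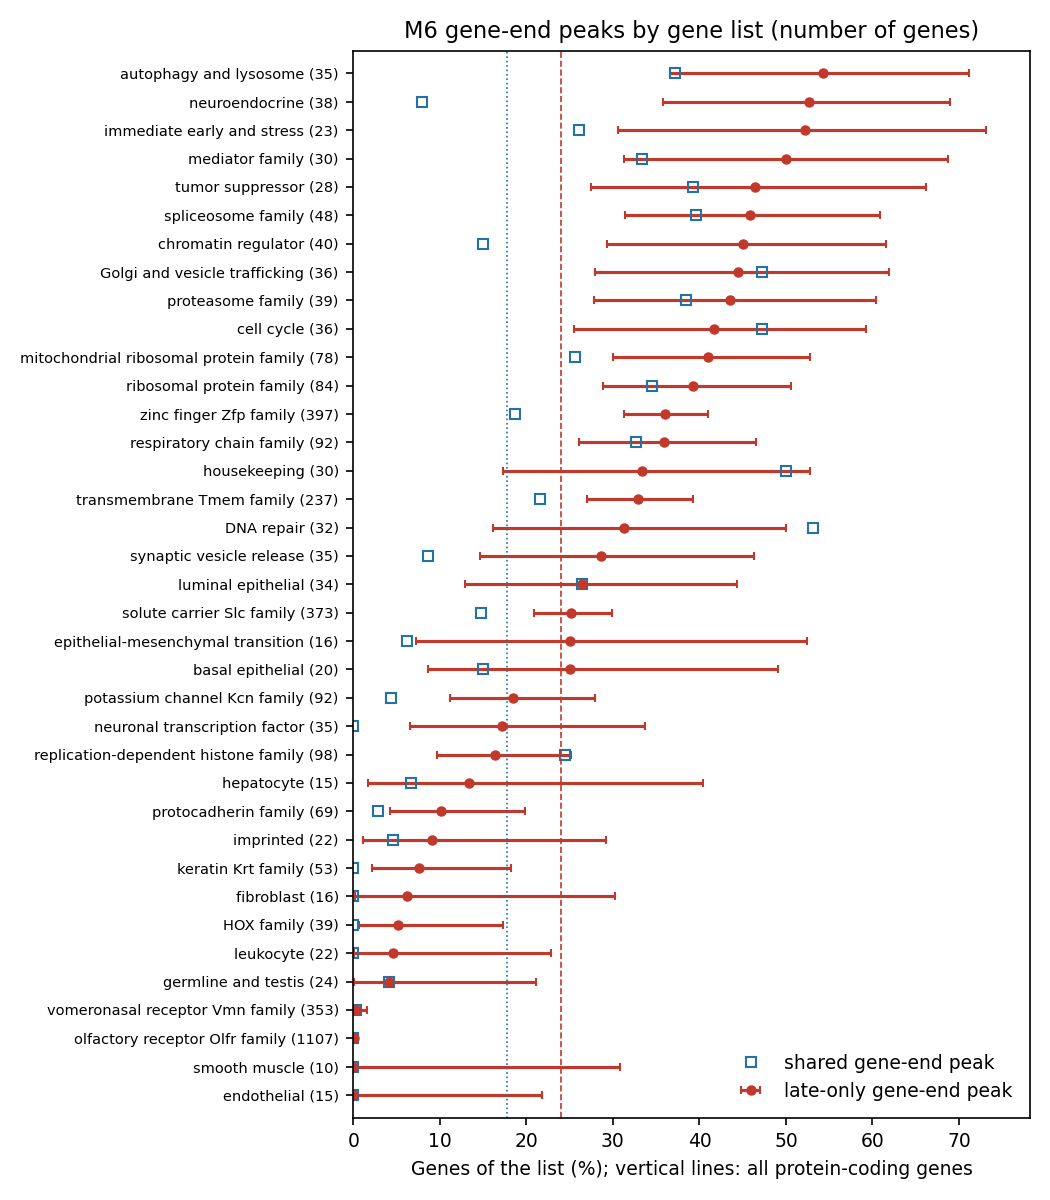
Share of the genes of each of 37 lists (y axis, number of genes in brackets) with a late-only gene-end peak (filled circles, 95% exact binomial intervals) and with a shared M6 gene-end peak (open squares); x axis in percent, and vertical lines give all protein-coding genes (24.0% and 17.7%). The neuroendocrine list stands at 52.6% late-only and 7.89% shared, and the DNA repair list at 31.2% and 53.1%.

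Among chromosomes the X stood apart in the share of gene-end peaks that were late-only. On the X, 185 of 213 M6 gene-end peaks were members (86.9%, interval 81.6 to 91.1%), against 60.2% (59.1 to 61.3%) on the autosomes, which ranged from 53.4% on chromosome 7 to 64.3% on chromosome 19. The count of X genes with a member was 192 of 966 (19.9%), somewhat below the 24.5% of autosomal genes, whereas shared peaks were at 3.93% of X genes and 18.5% of autosomal genes. In W2, 39 X genes (4.04%) had a gene-end peak, against 19.3% of autosomal genes. Median member pileup was 19 on the X and 21 on the autosomes, and median local background 2.68 and 3.76. The part of signal height in this difference was not tested. Strong X members lay at Tspyl2 and Gpr173 (pileup 40, −log10 q 22.4), at the prefoldin-like gene Uxt (33 and 19.4), at Zmat1 (31 and 18.8) and at Cd99l2 (30 and 17.8). Of these genes, Uxt also had a W2 gene-end peak, and the nearest W2 peak lay 11.1 kb from its member. On the Y chromosome there were 4 members, at Eif2s3y (pileup 20), Uty (23), Ddx3y (19) and Gm52481 (38, on a higher background with a fold of 3.15), and no shared gene-end peak.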

How the data were processed

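Chromatin accessibility was measured by ATAC-seq in 2 libraries, W2 and M6, each with its own deposited peak list and no replicates. The submitters' processing notes name build mm10 and, as tools, deepTools, SAMtools 1.4, Bowtie2 and Trim Galore 0.5.0. Not given in the sources used here are the peak caller, its threshold, the treatment of duplicates and any shift of read ends, each of which could move which peaks were called. The deposited fold is a ratio of summit pileup to local background within 1 library. For each peak, the authors gave a −log10 p-value and a −log10 q-value. The deposited score was 10 times the −log10 q and was not used further. Because each value is scaled within its own library, values were compared within M6, except for the pileups and local backgrounds of W2 named in the text.

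Pileup and background were solved from the deposited fold and −log10 p under a Poisson model, within 0.001 of the −log10 p, and the pileup came out whole for 100% of peaks. The steps were tested on simulated data. An overlap of 1 bp counted. Gene ends were those of 21887 protein-coding genes in RefSeq (GRCm38.p6), where the direction of a gene is known from its listed promoter. Promoter sequences were analysed outside chromosome 18, where they covered 82.6% of genes with a member, 86.2% of genes with a shared peak, 80.4% of those with neither and 81.8% of all. The members and the 37 gene lists were chosen with earlier results of these data known, and some genes are in several lists. Named genes were those of the 15 strongest members, up to 5 strongest per list, 5 with most members (ties in table order), the 5 widest members and the peaks next to each threshold. A few genes that this rule names are not reported here. Promoters shown were picked from the strongest and list genes whose member covers the start. Defining markers of cell types were picked from the lists after their peaks were known. Alternatives to overlap, window, threshold and number of peaks were run. Python 3.11.15, numpy 2.4.6, pandas 2.3.3, scipy 1.17.1 and matplotlib 3.10.9 were used.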

Additional observations from a re-analysis of the deposited data

Results flagged for a closer look

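The 2 left-out segments of chromosome 4 held 19 further late-only M6 gene-end peaks, which enter none of the counts above. Their median local background was 57.0, against 3.72 for the members, and their median pileup was 118. They are given here as a signal in data outside the comparisons, with a level above that at the other gene ends. The 5 M6 gene-end peaks there with a W2 peak had a median background of 69.0.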

How the results depend on the processing

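With M6 limited to its strongest peaks, as many as W2 had, 794 members remained in place of 5042, at 920 genes in place of 5259 and 862 without a W2 gene-end peak in place of 4764. The late-only share of M6 gene-end peaks was then 26.1%, median width 455.5 bp, pileup 31, fold 6.28 and −log10 q 13.2. Of the 163 named genes, 94 kept a member. With a −log10 q of at least 5 the share was 52.2%, width 370 bp, pileup 23, fold 4.93 and −log10 q 7.81. With no W2 peak within 1000 bp the share was 56.9% and the fold 4.48. With a gene-end window of 500 bp the share was 58.3%, the share at a start 96.4%, width 345 bp, fold 4.51 and −log10 q 6.42, and with 2000 bp the shares were 62.8% and 92.8% and the fold 4.40. The cause of these moves was not tested beyond what each setting removes. Lists above the share of all genes numbered 22 as reported and 17 to 21 under these settings. No paired analysis was possible because each stage is 1 library, and leaving out a replicate was not possible for the same reason.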
